A study of Mus musculus with 21 samples.

Results

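Tuft cells of the mouse thymus were compared with tuft cells of the small intestine, using 4 thymus libraries and 3 small intestine libraries of the 21 in the series. The libraries were chosen by their labels, and all genes of the count tables entered, so no gene was selected by its level. All 7 libraries came from naive 12-week-old male mice of the strain C57BL6.Il25(Flare25/Flare25), 1 mouse per library. The Flare25 allele places a fluorescent reporter in Il25, and cells were sorted as DAPI-;CD45-;EPCAM+;Flare25+ in both tissues, so that a tuft cell is defined here by its Il25 reporter. Both groups were homozygous for the allele. Small intestine epithelium was released with EDTA and gave 35000 to 36000 sorted cells per library, whereas thymus was digested with Liberase TM and DNase, enriched on Percoll and gave 1350 to 1900. Tissue, preparation and cell number therefore cannot be told apart. The study sorted a further small intestine tuft replicate that it discarded at quality control.

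Tuft cells are chemosensory epithelial cells that depend on the POU factor Pou2f3 and signal through a taste-like cascade of G protein subunits, phospholipase C and the cation channel Trpm5. In the small intestine they sense microbial metabolites and parasites and release interleukin-25, leukotrienes and acetylcholine. In the thymus they sit in the medulla among epithelial cells that express tissue-restricted genes and present them to developing T cells on major histocompatibility complex (MHC) molecules.

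Summed gene counts per library ran from 38659882 to 62268881. Thymus libraries held 20453 to 23179 detected genes against 18889 to 19396 in the intestine, and mitochondrial transcripts took 4.38% to 5.97% of counts against 24.1% to 33.5%. Of 13 listed mitochondrial transcripts, 5 had no count in any thymus library, so these shares may not cover all mitochondrial RNA. Log2 levels of libraries correlated across genes at 0.868 on average within thymus and 0.96 within small intestine, genes being no independent replicates. Levels are given as CPM, counts scaled by library size and TMM (trimmed mean of M values). They are listed for thymus libraries 1 to 4 and then for intestinal libraries 2 to 4, the numbers in the labels. A level of 3 counts over a whole group, 0.0256 CPM in the intestine and 0.0140 CPM in thymus, is taken as the floor for genes with no count, and folds against it are written as at least that size. Folds with 1 to 3 counts are ratios with a 95% exact counting interval, and both cover counting error only, since the libraries carry no molecular identifiers. In bulk libraries, fewer cells of a type and less RNA per cell cannot be told apart.

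Of 18224 genes with enough counts to test, 4853 were higher and 2633 lower in thymus tuft than in intestinal tuft cells. A gene was called at a Benjamini-Hochberg adjusted p under 0.05 in edgeR's quasi-likelihood test with at least a 2-fold difference, and log2 fold changes are given with their standard error. The background for the lists is therefore 26.6% called higher and 14.4% called lower, or 41.1% either way. Over all genes tested, 5006 passed the count filter only through the thymus libraries and 1362 only through the intestinal ones. In lists with many such genes the shares called are descriptions and are not read against the background. The median log2 fold change over all genes tested was 0.27. Much of the excess of higher calls lay at low levels. Of the genes called higher, 1170, or 6.42% of genes tested, had no count in any intestinal library, whereas 13 of those called lower had none in thymus. Of the 8359 genes whose larger group mean reached 20 CPM, 1931 were higher and 1947 lower. Libraries of both groups did not overlap for 52.3% of genes tested.

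**Figure D1:**
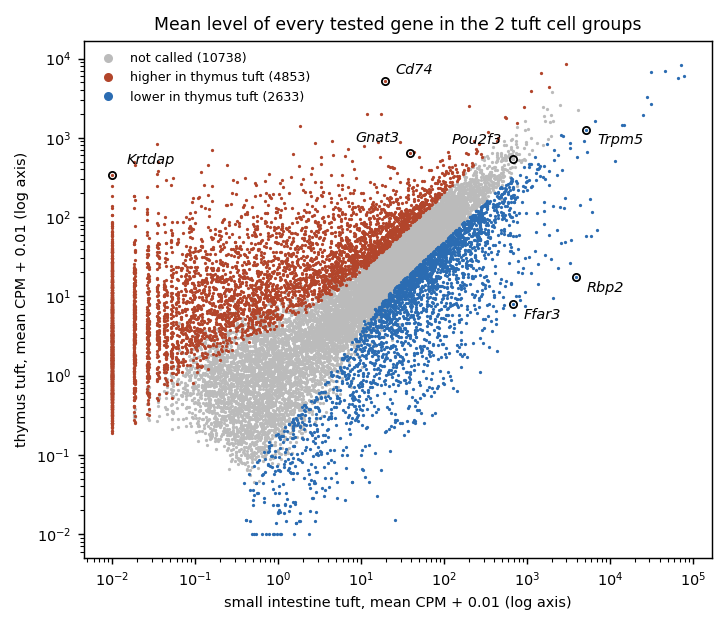
Mean level of each of the 18224 tested genes in small intestine tuft (x axis, n = 3) and thymus tuft (y axis, n = 4), as CPM plus 0.01 on log axes, with 4853 genes higher in thymus in red, 2633 lower in blue and the others in grey. The vertical line of points at the left edge is the genes with no count in the intestine, Krtdap among them, and Cd74 and Ffar3 lie far from the diagonal on either side.

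The thymus libraries carried the tuft programme. Pou2f3, the factor that specifies the lineage, stood at 435, 488, 504 and 496 CPM in thymus tuft cells, 639.8, 735 and 549 CPM in intestinal tuft cells and 11.4, 11.4 and 14.7 CPM in the reporter-negative small intestine epithelium sorted as a reference, on a scale set over all 21 libraries. Every thymus library was therefore above every non-tuft library. This held for 38 of 40 genes of the tuft lineage list, against 26.6% of the 20486 genes that reached 1 CPM in a library. The exceptions were Siglecf and Ffar3. These libraries come from another tissue than the reference, and thymic cells without the reporter were not analysed here.

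Most of the shared tuft genes were nevertheless at lower levels in thymus. Of the 40 tuft lineage genes tested, 27 were lower, 2 were higher and 11 were not called, with a median log2 fold change of -1.35. Many of these genes were defined in intestinal tuft cells, so the list is not independent evidence of direction. Pou2f3 itself was not called, at 493, 548, 554 and 569 CPM in thymus and 693, 783 and 578 CPM in intestine (log2 fold change -0.34 ± 0.15, adjusted p = 0.088). Its groups did not overlap, but the difference was less than 2-fold. Trpm5, the channel that depolarises the cell after calcium release, was measured at 1096, 1352, 1254 and 1348 CPM in thymus and 5973, 5228 and 4404 CPM in intestine. All 4 thymus libraries were below all 3 intestinal libraries (log2 fold change -2.04 ± 0.15, adjusted p = 3.3e-06). The kinase-like protein Dclk1 stood at 1014, 1035, 953 and 1356 CPM in thymus and 2903, 2364 and 2361 CPM in intestine and was lower in thymus without overlap (log2 fold change -1.22 ± 0.16, adjusted p = 1.8e-04). Larger differences were measured for further genes that the lineage shares with leukocytes. Matk, a kinase that restrains Src family kinases, was at 57.9, 80.0, 84.4 and 53.2 CPM in thymus and 2009, 2527 and 2359 CPM in intestine (log2 fold change -5.06 ± 0.21, adjusted p = 1.7e-07). Siglecf, an inhibitory sialic acid receptor, was at 20.4, 21.7, 23.1 and 13.9 CPM in thymus and 1109, 1158 and 1049 CPM in intestine. Neither Matk nor Siglecf overlapped between the groups, and Siglecf fell by 5.80 on the log2 scale (adjusted p = 1.0e-07).

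The 2 members that were higher in thymus both belong to the taste G protein. Gnat3, the alpha subunit gustducin, was at 509.5, 736, 488 and 851 CPM in thymus and 60.5, 35.7 and 19.4 CPM in intestine, with the lowest thymus library above the highest intestinal library (log2 fold change 4.07 ± 0.41, adjusted p = 3.0e-05). Gng13, the gamma subunit, was at 36.7, 81.8, 44.2 and 21.6 CPM in thymus and 3.23, 3.01 and 2.6 CPM in intestine, also without overlap (log2 fold change 3.97 ± 0.48, adjusted p = 1.1e-04). The phospholipase Plcb2, which acts directly downstream, was at 1198, 1419, 1372 and 1042 CPM in thymus and 939, 1056 and 889 CPM in intestine; its libraries overlapped and it was not called (log2 fold change 0.39 ± 0.15, adjusted p = 0.062). Il25 was at 36.8, 34.6, 9.22 and 9.79 CPM in thymus and 27, 28.7 and 23.4 CPM in intestine, with intestinal levels inside the thymus range (log2 fold change -0.22 ± 0.51, adjusted p = 0.76), and since cells were sorted on a reporter in this gene its level is not independent of the gate.

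**Figure D2:**
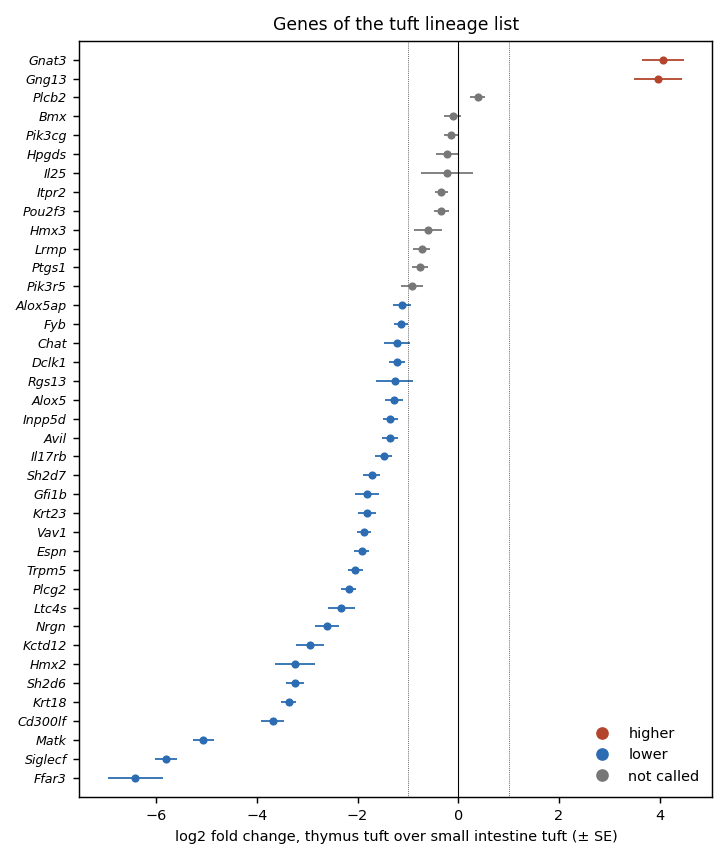
Log2 fold change of thymus tuft (n = 4) over small intestine tuft (n = 3) for 39 of the 40 genes of the tuft lineage list, with bars of 1 standard error from the fit, red for higher, blue for lower and grey for genes not called; dotted lines mark a 2-fold difference. Gnat3 and Gng13 stand alone on the right, 26 genes called lower lie to the left, and Ffar3 and Siglecf lie farthest left.

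The machinery that loads peptides on MHC class II was far higher in thymus tuft cells. It is otherwise typical of B cells, dendritic cells and thymic epithelium. Of 17 genes of this list tested, 13 were higher and 1, Rfxank, was lower, with a median log2 fold change of 6.20. Cd74, the invariant chain that guides class II molecules, was at 4252, 4568, 4985 and 6795 CPM in thymus and 39.6, 7.4 and 11.1 CPM in intestine. No libraries overlapped, and intestinal replicate 2 held the most of the 3 (log2 fold change 8.05 ± 0.68, adjusted p = 8.6e-06; 9.12 without that replicate). The class II alpha and beta chains followed. H2-Aa was at 1192, 1510.5, 1504 and 1393 CPM in thymus and 3.84, 0.746 and 0.85 CPM in intestine. H2-Ab1 was at 1612, 2092, 2075 and 2147 CPM in thymus and 21.8, 3.41 and 10.3 CPM in intestine. H2-Eb1 was at 304, 404, 336 and 362 CPM in thymus and 2.15, 2.9 and 2.5 CPM in intestine. All 3 were higher without overlap, with adjusted p-values of 2.8e-06, 9.0e-06 and 6.9e-08, and the log2 fold change of H2-Eb1 was 7.13. Again intestinal replicate 2 was the highest of its group for H2-Aa and H2-Ab1, whose log2 fold changes went from 9.59 to 10.77 and from 7.38 to 8.17 without it. The peptide exchange factors were higher as well. H2-DMa, the alpha chain of the exchange catalyst, was at 55.4, 51.9, 43 and 44.9 CPM in thymus and 2.25, 1.49 and 3.56 CPM in intestine (log2 fold change 4.33 ± 0.38, adjusted p = 1.2e-05). Its beta chain H2-DMb1 was at 69, 91.2, 117 and 46.1 CPM in thymus and 0.415, 0.426 and 2.45 CPM in intestine (log2 fold change 6.20 ± 0.74, adjusted p = 9.1e-05; 7.57 without intestinal replicate 4). H2-DMb2, the other beta chain, was at 134, 85.1, 140.0 and 77.8 CPM in thymus and 0.0489, 0 and 0 CPM in intestine, a ratio of 6602 higher (95% counting interval 1827 to 54516). H2-Oa, a chain of its inhibitor, was at 66.2, 91.3, 134 and 72.8 CPM in thymus and 0.0489, 0 and 0 CPM in intestine, a ratio of 5497 higher (95% counting interval 1522 to 45393). H2-DMb1 and H2-DMb2 are close copies, so reads may have been split between them. Markers of myeloid and dendritic cells, which also express class II genes, summed to 280 to 344 CPM in thymus and 26.1 to 61.2 CPM in intestine. Of 9 tested, 6 were higher, Lyz2 at 188, 185, 197 and 236 CPM in thymus and Csf1r and Zbtb46 among them, and none lower, while Clec9a had no thymus count. Their part in the class II levels was not tested.

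The regulators of class II genes did not move alike. Ciita, the coactivator that switches class II genes on, was at 68.3, 61.8, 50.1 and 29 CPM in thymus and 1.49, 0.772 and 0 CPM in intestine, higher without overlap (adjusted p = 6.6e-04). Of the 3 subunits of the RFX complex that binds class II promoters, Rfx5 was higher (log2 fold change 1.28 ± 0.33, adjusted p = 0.0099), and Rfxap was not called (log2 fold change 0.66 ± 0.41, adjusted p = 0.22). Rfxank was lower, at 10.7, 10.1, 11.1 and 9.36 CPM in thymus and 37.3, 47.8 and 42.6 CPM in intestine (log2 fold change -2.04 ± 0.26, adjusted p = 1.4e-04); neither Rfx5 nor Rfxank was called when all 18 tuft libraries of the series entered the fit. Among lysosomal proteases, Ctsl, the cathepsin that trims the invariant chain in cortical thymic epithelium, was at 354, 313, 353 and 236 CPM in thymus and 22.7, 20.8 and 24.4 CPM in intestine (log2 fold change 3.79 ± 0.21, adjusted p = 7.9e-07). Ctss, which has that role in bone marrow-derived cells, was at 29.4, 29, 23.7 and 28.3 CPM in thymus and 17.8, 23.6 and 22 CPM in intestine and was not called (log2 fold change 0.38 ± 0.26, adjusted p = 0.26).

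Because the class II genes were higher together, their promoters are shown. The 250 bases before the RefSeq start (build GRCm38.p6) were searched on both strands for GATTGG, the core of the Y box, and TAGCAAC, part of the X box, the elements bound by NF-Y and RFX. All 8 class II chain genes with an entry, of 9 listed, held GATTGG, against 14.6% of all 32851 promoters in the table. TAGCAAC was found in 3 of them, H2-Eb1, H2-Eb2 and H2-Ob, against 3.16% of all. Here and in the promoter searches below, a gene counts if any of its promoters matches, whereas the share over all is per promoter. Each stretch below is 60 bases in the direction of the gene, with matches to either motif on either strand in capitals:
H2-Aa at chr17:34287858-34287917, minus strand: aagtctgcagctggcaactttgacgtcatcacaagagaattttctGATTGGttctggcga
H2-Eb1 at chr17:34305762-34305821, plus strand: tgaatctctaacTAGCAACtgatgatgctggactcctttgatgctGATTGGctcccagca
H2-Eb2 at chr17:34325529-34325588, plus strand: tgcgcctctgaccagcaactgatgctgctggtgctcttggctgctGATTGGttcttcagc
H2-DMb1 at chr17:34153084-34153143, plus strand: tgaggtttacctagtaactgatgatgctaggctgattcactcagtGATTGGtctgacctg
H2-Oa at chr17:34092290-34092349, plus strand: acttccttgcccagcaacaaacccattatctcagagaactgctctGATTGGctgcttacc
H2-Ob at chr17:34238802-34238861, plus strand: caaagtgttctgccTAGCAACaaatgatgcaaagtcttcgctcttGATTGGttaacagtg
The TAGCAAC match of H2-Eb2 lies outside its stretch, and H2-Aa, H2-DMb1 and H2-Oa hold no exact TAGCAAC. The Y box match in the strand shown begins 44 to 101 bases before the annotated start in these 6 genes, and 199 bases before it in H2-DMa. H2-Eb1 holds a second match, on the opposite strand, 35 bases before its start. These are matches of letters, not measured binding.

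Class I presentation genes had smaller fold changes. Of 20 genes, 9 were higher, 2 lower and 9 not called (1 lower without thymus replicate 1 or intestinal replicate 2), with a median of 0.74. B2m, the light chain, was at 7483, 9212, 7979 and 9215 CPM in thymus and 3386, 2563 and 3023 CPM in intestine (log2 fold change 1.50 ± 0.15, adjusted p = 2.5e-05). The classical heavy chain H2-K1 was at 4165, 4296, 4690.4 and 4506 CPM in thymus and 1548, 1902 and 2060.2 CPM in intestine (log2 fold change 1.26 ± 0.14, adjusted p = 5.7e-05); neither overlapped. H2-D1 differed by less than 2-fold (log2 fold change 0.42 ± 0.13, adjusted p = 0.025). H2-Q7, a nonclassical chain of a family with near-identical copies, differed far more, at 292, 311, 332 and 306 CPM in thymus and 10.7, 7.8 and 7.55 CPM in intestine (log2 fold change 5.16 ± 0.21, adjusted p = 1.4e-07). Nlrc5, the class I coactivator, was at 84.1, 74.2, 107 and 110.5 CPM in thymus and 23, 9.69 and 14.3 CPM in intestine and higher without overlap (log2 fold change 2.58 ± 0.33, adjusted p = 1.3e-04). Psmb10, a subunit of the immunoproteasome, was at 12.1, 46.7, 33.9 and 37.4 CPM in thymus and 105, 89.3 and 105 CPM in intestine and was lower (log2 fold change -1.62 ± 0.37, adjusted p = 0.0055), though not called with all 18 tuft libraries in the fit.

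**Figure D3:**
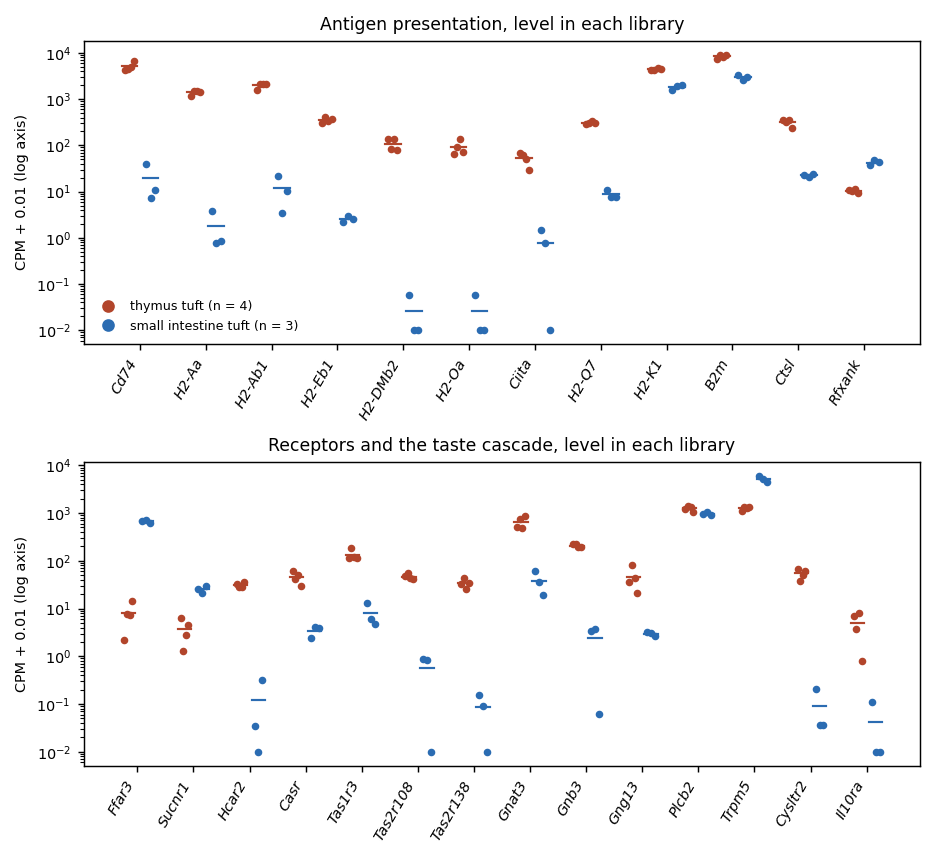
Level in each library, as CPM plus 0.01 on a log axis, of antigen presentation genes (top) and of receptors and taste cascade genes (bottom), with thymus tuft in red (n = 4), small intestine tuft in blue (n = 3) and horizontal lines at the group means. Class II genes sit near 0 to 39.6 CPM in intestine and at up to 6795 CPM in thymus, Ffar3, Sucnr1 and Trpm5 show the opposite order, and Plcb2 overlaps.

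Receptors for metabolites were called in both directions. Of 24 listed, 15 had enough counts, of which 4 were higher and 4 lower, and the median was 0.00. Of the 15, 5 passed the count filter only with their thymus counts and 3 only with their intestinal counts. The shares called are therefore descriptions. Ffar3, a receptor for short-chain fatty acids (ENSMUSG00000019429, chr7:30854330-30856178), was at 2.15, 7.59, 7.3 and 14.6 CPM in thymus and 667, 718 and 632 CPM in intestine. The 3 intestinal libraries lay far above all 4 of thymus (log2 fold change -6.41 ± 0.54, adjusted p = 8.8e-06). On the scale of all 21 libraries the thymus range of Ffar3, 1.89, 6.76, 6.64 and 12.7 CPM, spanned the non-tuft reference at 8.19, 5.06 and 5.99 CPM. Sucnr1, the succinate receptor that starts the tuft response to protists, was at 6.18, 1.3, 2.73 and 4.47 CPM in thymus and 25.7, 21 and 30.4 CPM in intestine (log2 fold change -2.81 ± 0.53, adjusted p = 0.0018). The purinergic receptor P2ry1 was also lower, at 3.91, 0.537, 1.47 and 0.256 CPM in thymus and 26.9, 16.4 and 24.3 CPM in intestine (log2 fold change -3.86 ± 0.83, adjusted p = 0.0037; -4.82 without thymus replicate 1). Other receptors were higher in thymus. Hcar2, a receptor for butyrate and nicotinic acid, was at 32.1, 27.9, 28.7 and 35.8 CPM in thymus and 0.0244, 0 and 0.309 CPM in intestine. Casr, the calcium-sensing receptor, was at 60.9, 41.5, 50.5 and 29.5 CPM in thymus and 2.37, 4.02 and 3.86 CPM in intestine. Both were higher without overlap, with adjusted p-values of 8.0e-05 and 3.3e-05.

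Bitter receptors of the Tas2r family, which couple to gustducin, were measured almost only in thymus. Of 35 family members, 29 passed the count filter, all of them through their thymus counts, and all 29 were called higher; since passing required thymus counts, that share is a description. Summed over the family, thymus libraries held 148 to 248 CPM and intestinal libraries 0 to 1.52 CPM, near the 0.826 to 1.43 CPM of the non-tuft reference. In 25 of the 35 no count was present in any intestinal library. Since most levels were low, 8 members were called with a filter of 5 CPM in 3 libraries. Tas2r108 was at 47.3, 55.1, 43.6 and 41.3 CPM in thymus and 0.88, 0.826 and 0 CPM in intestine (adjusted p = 2.9e-04). Tas2r138 was at 32.1, 43.1, 26.1 and 33.8 CPM in thymus and 0.147, 0.0799 and 0 CPM in intestine (adjusted p = 9.4e-06). Tas2r137 was at 27.8, 37.1, 12.5 and 22.2 CPM in thymus and 0.147, 0.479 and 0 CPM in intestine (adjusted p = 3.7e-04). None of these 3 overlapped between the tissues, and intestinal replicate 4 held no count of any of them. CPM is not corrected for gene length, so their levels are not ranked here. Tas2r105, the cycloheximide receptor, was at 9.84, 12.4, 4.73 and 7.52 CPM in thymus with no intestinal count, at least 327-fold higher. At the other end Tas2r139 had no count in any of the 7 libraries and Tas2r114 had counts in only 2 thymus libraries. Most family members lie in clusters of similar genes, among which the counting may have split reads.

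The promoters of the family were searched for the octamer ATGCAAAT, the element bound by POU factors, on both strands of the same 250 bases. It was present in 7 of the 31 members with an entry, or 22.6%, against 1.6% of all promoters. Since most members lie in clusters of similar genes, their promoters may not be independent of each other. The 7 include Tas2r108 and Tas2r137. They also include receptors at low levels, such as Tas2r126 at 1.84, 2.23, 1.04 and 0.898 CPM in thymus. In 6 of the 7 it lies on the strand opposite to the gene, where it reads ATTTGCAT. The stretches of 24 bases around the match, in capitals, are shown for 4 of them:
Tas2r108 at chr6:40493438-40493461, plus strand: cttgaaagATTTGCATctcagtaa
Tas2r137 at chr6:40491038-40491061, plus strand: tgggcattATTTGCATctcaacaa
Tas2r118 at chr6:23970169-23970192, minus strand: taaggaggATTTGCATccacaaag
Tas2r107 at chr6:131660370-131660393, minus strand: attgctaaATGCAAATagttccaa
A match of these letters says nothing of whether Pou2f3 or another factor is bound there.

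**Figure D4:**
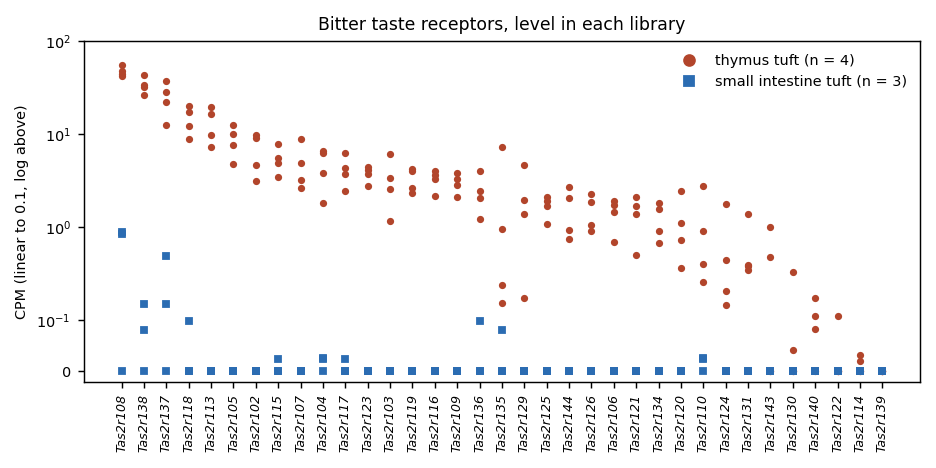
Level of each of the 35 bitter receptors in each library, as CPM on an axis that is linear up to 0.1 and logarithmic above, ordered by the thymus mean, with thymus tuft as red circles (n = 4) and small intestine tuft as blue squares (n = 3). The highest thymus value is 55.1 CPM for Tas2r108 and the levels fall to 0 for Tas2r139, while no intestinal value exceeds 0.88 CPM.

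In the sweet and umami receptor list 2 of 6 tested members were higher and 1 was lower. Of the 6, 4 passed the count filter only with their thymus counts, so these shares are descriptions. Tas1r3, the subunit common to sweet and umami receptors, was at 115, 187, 120.0 and 115 CPM in thymus and 13, 6.15 and 4.69 CPM in intestine. Its umami partner Tas1r1 was at 18.1, 9.24, 15.2 and 9.92 CPM in thymus and 0.464, 0.16 and 0.335 CPM in intestine. Both were higher in thymus without overlap (log2 fold change 4.08 ± 0.40, adjusted p = 2.7e-05 and log2 fold change 5.34 ± 0.67, adjusted p = 1.2e-04). The sweet partner Tas1r2 was not called, at 2.0, 0.124, 0.651 and 0.278 CPM in thymus and 0, 1.92 and 0 CPM in intestine; it was called higher without intestinal replicate 3, the only one with counts. Vmn2r26, a vomeronasal receptor known in intestinal tuft cells, was lower in thymus, at 0.182, 0.351, 0.48 and 0.684 CPM in thymus and 9.33, 4.45 and 9.74 CPM in intestine (log2 fold change -4.20 ± 0.76, adjusted p = 0.0014). Of 23 cascade genes, 10 were higher and 3 lower (1 lower without thymus replicate 1), with a median of 1.28. Gnb3, the beta subunit that pairs with gustducin, was at 221, 229, 191 and 193 CPM in thymus and 3.4, 3.75 and 0.0515 CPM in intestine; intestinal replicate 4 was lowest (adjusted p = 2.8e-04). Calhm3, a subunit of the channel that releases ATP in taste cells, was at 41.5, 58.3, 39.8 and 42.5 CPM in thymus and 8.67, 7.59 and 5.82 CPM in intestine (log2 fold change 2.63 ± 0.30, adjusted p = 6.5e-05). Rgs21, a regulator of G protein signalling found in taste cells, was at 32.5, 65, 32.7 and 50.8 CPM in thymus and 0.293, 0.32 and 0 CPM in intestine (adjusted p = 4.3e-05). The calcium channels that follow did not share this direction. Itpr3 was not called, at 134, 133, 85.6 and 86.6 CPM in thymus and 165, 163 and 133 CPM in intestine (log2 fold change -0.49 ± 0.22, adjusted p = 0.093), and Itpr2 was not called either (log2 fold change -0.33 ± 0.14, adjusted p = 0.07).

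Genes of eicosanoid synthesis differed in both directions. In leukotriene synthesis, Alox5, the 5-lipoxygenase, was at 354, 353, 483 and 539 CPM in thymus and 1154, 955 and 1037 CPM in intestine (log2 fold change -1.28 ± 0.18, adjusted p = 3.3e-04). Ltc4s, the leukotriene C4 synthase, was at 16, 31.6, 34.1 and 32.5 CPM in thymus and 145, 128 and 156 CPM in intestine (log2 fold change -2.32 ± 0.27, adjusted p = 7.1e-05); both were lower in thymus without overlap. Lta4h, which makes leukotriene B4, was lower as well, at 17.8, 32.8, 28.9 and 13.2 CPM in thymus and 106, 88.4 and 112 CPM in intestine (log2 fold change -2.14 ± 0.31, adjusted p = 3.7e-04). Ggt5, which converts leukotriene C4 to D4, was higher, at 20.6, 23.5, 12.9 and 10.9 CPM in thymus with no intestinal count, at least 658-fold higher. In the prostaglandin branch Ptgs2, the inducible cyclooxygenase, was at 377, 436, 422 and 474 CPM in thymus and 30.3, 21.3 and 18.4 CPM in intestine (log2 fold change 4.19 ± 0.23, adjusted p = 7.5e-07), higher without overlap, whereas its constitutive partner Ptgs1 differed by less than 2-fold (log2 fold change -0.76 ± 0.15, adjusted p = 0.0027). Ptges, a prostaglandin E synthase, was at 49.5, 62.1, 75.8 and 98.6 CPM in thymus and 0.147, 0.0266 and 0.0773 CPM in intestine and was higher (adjusted p = 7.8e-07). Hpgd, which degrades prostaglandins, was lower, at 27, 23.5, 31.1 and 20.6 CPM in thymus and 146, 123 and 149.6 CPM in intestine (log2 fold change -2.45 ± 0.20, adjusted p = 8.0e-06). Other lipoxygenases were higher in thymus. Alox12e, the epidermal form, was at 177, 250.3, 299.7 and 256 CPM in thymus with no intestinal count, at least 9677-fold higher. Alox15, of the same family, was at 87.9, 144, 99.8 and 132 CPM in thymus and 1.51, 1.22 and 0.0515 CPM in intestine (adjusted p = 5.9e-05). Of 23 synthesis genes, 9 were higher and 5 lower, with a median of 0.18. Of 8 receptors tested, 3 were higher and none lower (2 lower without thymus replicate 1); the cysteinyl leukotriene receptor Cysltr2 was at 67.5, 38.1, 50.9 and 60.9 CPM in thymus and 0.195, 0.0266 and 0.0258 CPM in intestine (adjusted p = 2.9e-06).

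Acetylcholine genes differed in both directions. Chat, which makes acetylcholine, was at 130.4, 134, 99.8 and 206 CPM in thymus and 369, 372 and 254 CPM in intestine and was lower in thymus (log2 fold change -1.22 ± 0.25, adjusted p = 0.003). Ache, which breaks it down, was at 283, 285, 231 and 154 CPM in thymus and 6.52, 2.48 and 0.979 CPM in intestine, higher without overlap (log2 fold change 6.16 ± 0.63, adjusted p = 3.4e-05; 7.10 without intestinal replicate 2). Colq, which anchors Ache, was higher, at 57.5, 97.7, 90.3 and 44.7 CPM in thymus and 7.04, 11.8 and 9.71 CPM in intestine (log2 fold change 2.93 ± 0.35, adjusted p = 1.0e-04; not called with 18 tuft libraries). The related esterase Bche, which also breaks it down, was lower, at 29.6, 55.2, 25.2 and 26.6 CPM in thymus and 446, 270.4 and 289.9 CPM in intestine (log2 fold change -3.30 ± 0.31, adjusted p = 2.0e-05). Of the nicotinic receptor subunits, Chrnb4 was at 7.38, 16.1, 10.0 and 38.3 CPM in thymus and 0.269, 0.799 and 1.13 CPM in intestine (adjusted p = 0.0012). In the list 8 of 15 genes were higher and 2 lower (5 higher with a filter of 5 CPM in 3 libraries), with a median of 2.93. Of the 15, 8 passed the count filter only with their thymus counts, so the share called higher and the median are descriptions.

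Cytokines and chemokines other than Il25 were called higher more often than lower. Of 34 tested, 18 were higher, 4 lower and 12 not called (1 lower with 18 tuft libraries), with a median of 2.26. Cxcl10, a ligand of the chemokine receptor Cxcr3 of T cells, was at 352, 459, 311 and 536 CPM in thymus and 6.23, 1.22 and 0.206 CPM in intestine. Cxcl9, another ligand of Cxcr3, was at 228, 295, 137 and 168 CPM in thymus and 5.4, 0.293 and 0.541 CPM in intestine. In both, intestinal replicate 2 was the highest of its group. Cxcl1, which attracts neutrophils, was at 113, 177, 111 and 171 CPM in thymus and 0.269, 0.107 and 0.309 CPM in intestine. Cxcl2, which also does, was at 167, 210.4, 181 and 209.8 CPM in thymus and 0.342, 1.25 and 0.206 CPM in intestine. None of these 4 chemokines overlapped between the groups, and their adjusted p-values were 1.7e-04, 3.5e-04, 3.0e-07 and 2.9e-06. The anti-inflammatory cytokine Il10 was at 62.6, 52.3, 65.9 and 76.9 CPM in thymus and 0.22, 0 and 0 CPM in intestine (adjusted p = 1.0e-05). Il12a, a subunit of interleukin-12 and interleukin-35, was at 43.3, 70.9, 55 and 89.3 CPM in thymus with no intestinal count, at least 2466-fold higher. Csf1, the macrophage growth factor, was at 71.3, 52.9, 90.7 and 48.4 CPM in thymus and 5.06, 1.92 and 4.17 CPM in intestine (log2 fold change 4.14 ± 0.42, adjusted p = 3.2e-05). Il18, a cytokine made by gut epithelium, was lower in thymus, at 0.273, 0.124, 0.139 and 0.513 CPM in thymus and 29.7, 24.8 and 27.9 CPM in intestine (log2 fold change -6.71 ± 0.61, adjusted p = 1.4e-05). Ltb, the lymphotoxin beta chain, was also lower, at 6.89, 0.744, 1.08 and 6.88 CPM in thymus and 39.8, 27.3 and 19.9 CPM in intestine (log2 fold change -2.90 ± 0.77, adjusted p = 0.011; not called with 18 tuft libraries).

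Receptors for cytokines likewise differed in both directions. Of 30 tested, 15 were higher and 6 lower, with a median of 1.24. Il17rb, through which interleukin-25 signals, was at 259.5, 234, 320.1 and 272 CPM in thymus and 858, 779.5 and 635 CPM in intestine and was lower in thymus (log2 fold change -1.48 ± 0.17, adjusted p = 6.2e-05). Il4ra, which relays interleukin-4 and interleukin-13, was higher, at 252, 271, 234 and 185 CPM in thymus and 93.9, 88.9 and 88.7 CPM in intestine (log2 fold change 1.38 ± 0.18, adjusted p = 1.5e-04), while its partner Il13ra1 was not called (log2 fold change 0.17 ± 0.18, adjusted p = 0.48). Csf2rb, the common beta chain, was at 114, 104, 165 and 138 CPM in thymus and 1.47, 1.52 and 0.67 CPM in intestine (log2 fold change 6.74 ± 0.38, adjusted p = 8.3e-07). Il6st, the signalling chain for interleukin-6, was at 187, 223, 246 and 337 CPM in thymus and 24.8, 12.5 and 21 CPM in intestine (log2 fold change 3.67 ± 0.31, adjusted p = 8.9e-06). Tnfrsf11a, the receptor RANK that drives medullary epithelial maturation, was at 219, 126, 199 and 82.1 CPM in thymus and 25.5, 33.1 and 46.4 CPM in intestine (log2 fold change 2.16 ± 0.36, adjusted p = 9.0e-04; not called with 18 tuft libraries). Il22ra1, the interleukin-22 receptor of gut epithelium, was lower, at 6.2, 2.21, 7.73 and 2.48 CPM in thymus and 61.6, 50.8 and 78.8 CPM in intestine (log2 fold change -3.77 ± 0.47, adjusted p = 1.4e-04).

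Interferon-stimulated genes did not move as a block. Of 32, 12 were higher, 4 lower and 16 not called, with a median of 0.40, and 4 were called higher when all 18 tuft libraries entered the fit. The GTPase Iigp1 was at 34.7, 52.3, 43.6 and 65.7 CPM in thymus and 0.0733, 0 and 0.0515 CPM in intestine (log2 fold change 10.09 ± 0.64, adjusted p = 1.5e-06; 10.74 without intestinal replicate 2). The deubiquitinase Usp18 was at 74.1, 86.7, 85.2 and 83.5 CPM in thymus and 14.7, 11.3 and 12.5 CPM in intestine (log2 fold change 2.68 ± 0.22, adjusted p = 6.6e-06). Oas2, an antiviral oligoadenylate synthetase, was at 36.5, 68.3, 89.7 and 45.9 CPM in thymus and 799, 797 and 803 CPM in intestine and was lower in thymus (log2 fold change -3.73 ± 0.29, adjusted p = 5.1e-06), as was Irf7 (log2 fold change -1.46 ± 0.15, adjusted p = 3.2e-05). Oasl2, a relative of these enzymes, was at 662, 649, 649 and 791 CPM in thymus and 869, 474 and 456 CPM in intestine and was not called (log2 fold change 0.20 ± 0.23, adjusted p = 0.52).

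Genes of haematopoietic signalling, which intestinal tuft cells share with leukocytes, were lower in thymus for 15 of 35 tested and higher for 3, with a median of -0.97. No member was called higher when all 18 tuft libraries entered the fit. Besides Matk, Rac2, a small GTPase of blood cells, was at 267, 284, 341 and 304 CPM in thymus and 2047, 1491 and 1377 CPM in intestine (log2 fold change -2.46 ± 0.18, adjusted p = 3.1e-06). Was, an actin regulator of blood cells, was at 0.0364, 0.062, 0.031 and 0.0855 CPM in thymus and 20.0, 17.9 and 14.8 CPM in intestine (log2 fold change -8.31 ± 0.63, adjusted p = 4.6e-06). Ptprc, which encodes the CD45 used as a negative gate, was at 54.5, 78.7, 62.5 and 77.9 CPM in thymus and 136, 169 and 171 CPM in intestine (log2 fold change -1.22 ± 0.19, adjusted p = 6.3e-04). Syk was among the 3 that were higher, at 34.9, 19.5, 36.6 and 30.0 CPM in thymus and 5.59, 3.97 and 5.8 CPM in intestine (log2 fold change 2.56 ± 0.37, adjusted p = 3.2e-04). Neither Ptprc nor Syk was called with 18 tuft libraries. The phosphoinositide 3-kinase subunit Pik3cg was not called (log2 fold change -0.13 ± 0.15, adjusted p = 0.5).

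The transcription factors of the gut and of the pharyngeal pouch, from which the thymus arises, divided the tissues. Of 20 intestinal regulators, 14 were lower in thymus and 1 was higher (2 without thymus replicate 1 or 4 or intestinal replicate 2), with a median of -3.28. DESeq2 and limma each called 3 higher. Hnf4a, a nuclear receptor of enterocytes, was at 16.2, 14.7, 17.3 and 5.49 CPM in thymus and 484, 561 and 575 CPM in intestine (log2 fold change -5.33 ± 0.37, adjusted p = 2.6e-06). Gata5 was at 1.24, 2.21, 1.75 and 1.58 CPM in thymus and 189.8, 195 and 186 CPM in intestine (log2 fold change -6.81 ± 0.25, adjusted p = 1.0e-07). Cdx2, which sets intestinal identity, was at 2.29, 1.59, 1.02 and 0.47 CPM in thymus and 96.6, 41.6 and 47.3 CPM in intestine (log2 fold change -5.52 ± 0.57, adjusted p = 3.3e-05). Of 15 pharyngeal and thymic regulators tested, 12 were higher and 1 was lower, with a median of 9.35, or 8.76 with genes that had 3 or fewer intestinal counts set to their bound or ratio. Of the 15, 12 passed the count filter only with their thymus counts, so the share called higher and the median are descriptions. Foxn1, the master regulator of thymic epithelium, was at 209, 219.9, 151 and 165 CPM in thymus and 0.0244, 0 and 0 CPM in intestine, a ratio of 21621 higher (95% counting interval 3880.2 to 853991). Eya1, a transcriptional coactivator, was at 314, 363, 292 and 282 CPM in thymus and 0.366, 0.533 and 0.258 CPM in intestine (log2 fold change 9.66 ± 0.32, adjusted p = 6.6e-08). Pax9 and Pax1, which pattern the pouch, were higher as well, Pax9 at 50.2, 46, 59.9 and 66.1 CPM in thymus and 0.0977, 0.133 and 0 CPM in intestine (adjusted p = 2.2e-06). Hoxa3 was the member called lower, at 3.53, 4.84, 1.72 and 4.68 CPM in thymus and 8.77, 11.9 and 13.7 CPM in intestine (log2 fold change -1.63 ± 0.52, adjusted p = 0.027), a call that was lost without any of intestinal replicates 2, 3 or 4 or thymus replicates 1 or 3 (adjusted p from 0.0508 to 0.113).

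The keratins divided by type. Of 16 tested, 11 were higher and 5 lower in thymus. The 5 were the simple epithelial keratins Krt8, Krt18, Krt19, Krt20 and Krt23. Of the 16, 9 passed the count filter only with their thymus counts, so the share called higher is a description. Krt18 was at 1172, 1623, 1608 and 1343 CPM in thymus and 16061, 14063 and 14398 CPM in intestine (log2 fold change -3.37 ± 0.15, adjusted p = 2.5e-07). Krt20 was at 51.5, 37, 48.7 and 45.3 CPM in thymus and 525, 600.0 and 762 CPM in intestine (log2 fold change -3.78 ± 0.19, adjusted p = 5.0e-07). Krt5, a keratin of basal stratified epithelium, was at 737, 619.8, 739 and 702 CPM in thymus and 0.391, 0.0266 and 0.0258 CPM in intestine, with no overlap (adjusted p = 7.5e-07). Krt17 was at 449, 503, 413 and 470.1 CPM in thymus and 0.0244, 0.373 and 0 CPM in intestine (adjusted p = 1.5e-06). Krt14, the partner of Krt5, was at 77.1, 106, 64.5 and 97.6 CPM in thymus with no intestinal count, at least 3295-fold higher.

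Of 21 claudins and junction genes, 9 were lower and 3 higher (5 lower when all 18 tuft libraries entered the fit), with a median of -0.71. Cldn15, a pore-forming claudin of the intestine, was at 10.9, 4.75, 4.34 and 0.427 CPM in thymus and 369.8, 266 and 253 CPM in intestine (log2 fold change -5.86 ± 0.78, adjusted p = 1.9e-04; -6.47 without thymus replicate 1). Cdh17, the liver-intestine cadherin, was at 63, 64.9, 58.8 and 46.3 CPM in thymus and 733, 610.1 and 715 CPM in intestine (log2 fold change -3.56 ± 0.17, adjusted p = 4.1e-07). Cldn4 was higher in thymus, at 283, 365, 258 and 755 CPM in thymus and 26.1, 20.7 and 25.5 CPM in intestine (log2 fold change 4.11 ± 0.41, adjusted p = 2.6e-05). Epcam, the surface protein of the sort gate, differed by slightly less than 2-fold, at 715, 769, 823 and 941 CPM in thymus and 1645, 1631 and 1457 CPM in intestine (log2 fold change -0.96 ± 0.14, adjusted p = 3.7e-04), and was called lower without intestinal replicate 4.

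The rule for named genes, which takes the largest differences at 20 CPM or more without overlap, gave several genes of keratinised epithelium in the thymus direction. Krtdap, a secreted protein of keratinocyte differentiation (GRCm38 chr7:30787896-30791097), was at 263, 333, 372 and 377 CPM in thymus with no intestinal count, at least 13146-fold higher. Serpinb2, a serpin of stratified epithelium, was at 168, 189, 192 and 193 CPM in thymus with no intestinal count (at least 7249-fold higher). The keratin Krt77 was at 116, 81.3, 165 and 151 CPM, again with no intestinal count (at least 5109-fold higher). Spink5, an epidermal protease inhibitor, was at 456, 420.1, 559 and 549.5 CPM in thymus with 1 intestinal count, a ratio of 58580.0 higher (95% counting interval 10514 to 2313810.0). The set also held genes of other tissues. Csn2, the milk protein beta-casein, was at 438, 421, 540.1 and 418 CPM with 1 intestinal count, a ratio of 54026 higher (95% counting interval 9696 to 2133950.0). Irf4, a transcription factor of lymphocytes, was at 110.4, 99.1, 111 and 109.6 CPM (at least 4221-fold higher). The adipocyte lipid-binding protein Fabp4 was at 59.7, 93.4, 84.9 and 92.1 CPM (at least 3203-fold higher). The lipid kinase Dgkk was at 103, 96.2, 101 and 119.6 CPM (at least 4091-fold higher). Irf4, Fabp4 and Dgkk had no intestinal count. Skint7, a butyrophilin-like protein, was at 86.2, 80.7, 58.1 and 113 CPM (at least 3217-fold higher). The membrane protein Prrg3 was at 64.5, 117, 56.5 and 74.2 CPM (at least 2973-fold higher). Alox12e and Krt14, given above, complete the 12.

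In the other direction the rule gave several genes of digestion and drug metabolism. Rbp2, the retinol-binding protein of enterocytes (chr9:98486115-98509781), was at 17.4, 20.6, 16.9 and 14.7 CPM in thymus and 4029, 3448 and 4229 CPM in intestine (log2 fold change -7.81 ± 0.19, adjusted p = 3.4e-08). Alpi, intestinal alkaline phosphatase, was at 14.7, 11.4, 10.1 and 1.47 CPM in thymus and 2466, 1815 and 1911 CPM in intestine (log2 fold change -7.77 ± 0.67, adjusted p = 1.0e-05). Slc2a2, the glucose transporter GLUT2, was at 0.764, 0.765, 1.05 and 0.15 CPM in thymus and 163, 119 and 105 CPM in intestine (log2 fold change -7.54 ± 0.53, adjusted p = 2.9e-06). The cytochromes P450 Cyp2b10, Cyp2c66 and Cyp2c29 were also among the 12, Cyp2b10 at 1.47, 1.53, 1.16 and 0.171 CPM in thymus and 234, 303 and 279.5 CPM in intestine (log2 fold change -7.96 ± 0.58, adjusted p = 3.5e-06). The other 6 have other known roles. Cnih3, an auxiliary protein of glutamate receptors, was at 25.4, 33 and 17.7 CPM in the intestine with 1 count over the 4 thymus libraries, a ratio of 5427 lower (95% counting interval 973 to 214408). Mlip, a lamin-interacting protein of muscle, was at 0.20, 0.248, 0.341 and 0.171 CPM in thymus and 70.1, 48.9 and 53.6 CPM in intestine (log2 fold change -7.88 ± 0.39, adjusted p = 4.2e-07). Smpx, a small muscle protein, was at 0.0909, 0.496, 0.542 and 0.192 CPM in thymus and 72.9, 74 and 88.6 CPM in intestine (log2 fold change -7.87 ± 0.56, adjusted p = 3.0e-06). The calcium-binding protein Cgref1 was at 2.58, 3.25, 2.09 and 0.321 CPM in thymus and 540.5, 371 and 380.4 CPM in intestine (log2 fold change -7.70 ± 0.63, adjusted p = 6.9e-06). The transcription factor Glis1 fell by 7.54 and the transporter Slc5a4a by 7.73 on the log2 scale, the latter with a close copy, Slc5a4b, that may share its reads.

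Markers of the other cells that each gate could hold moved with these results. Enterocyte markers were lower in thymus for 21 of 22 genes, with a median of -6.05, and their summed level was 529 to 855 CPM in thymus against 44149 to 50010 CPM in intestinal tuft cells. On the scale of all 21 libraries the intestinal tuft sum of 41463 to 47459 CPM was above the 24309 to 25958 CPM of the non-tuft reference. Fabp1, a fatty acid-binding protein of enterocytes, was at 14.6, 62.7, 82.9 and 72.5 CPM in thymus and 6934, 5137 and 5936 CPM in intestine (log2 fold change -6.69 ± 0.53, adjusted p = 5.9e-06). Apoa1, an apolipoprotein, was at 91.9, 72.7, 89.2 and 19.8 CPM in thymus and 4335, 7629 and 9211 CPM in intestine (log2 fold change -6.69 ± 0.53, adjusted p = 6.0e-06). The promoters of the 19 enterocyte genes with an entry, of 22, held the sequence CAAAGTCCA, a core of sites for Hnf4a, in 2 cases, against 0.384% of all promoters, shown in capitals:
Alpi at chr1:87101609-87101633, minus strand: gccagggaCAAAGTCCAtctctgat
Treh at chr9:44673154-44673178, plus strand: tcatagccTGGACTTTGgctgacct
The part of enterocyte RNA in the intestinal levels of these genes was not tested.

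Goblet, Paneth and enteroendocrine markers were called in both directions, unlike the enterocyte markers. Of 10 goblet markers, 3 were lower and 1 was higher (6 lower without thymus replicate 4), and their sums of 1768 to 3015 CPM in thymus and 2319 to 2785 CPM in intestine overlapped, far below the 103786 to 113861 CPM of the reference on the scale of all 21 libraries. Muc2, the gel-forming mucin, was at 380.2, 344, 239 and 18 CPM in thymus and 697, 806 and 762 CPM in intestine (log2 fold change -1.62 ± 0.68, adjusted p = 0.077). Zg16, a goblet cell lectin, was at 288, 208, 179 and 1.47 CPM in thymus and 424, 547 and 500.1 CPM in intestine; thymus replicate 4 was far below its 3 group members for both, and both were called lower without it. Fcgbp, a mucus protein, was higher in thymus, at 1991, 1860.0, 1876 and 1647 CPM in thymus and 412, 551 and 649 CPM in intestine (log2 fold change 1.78 ± 0.18, adjusted p = 3.0e-05). Fcgbp made up most of the goblet sum in every thymus library and the lesser part in the intestine. The overlap of the goblet sums depends on this gene. Of 10 Paneth markers 1 was higher and 1 lower (none lower without thymus replicate 1 or 2 or intestinal replicate 2 or 4). Of 18 enteroendocrine markers 5 were higher and 3 lower (6 lower without thymus replicate 2, and 3 higher with 18 tuft libraries). The enteroendocrine sums did not overlap, at 261 to 416 CPM in thymus and 566 to 1392 CPM in intestine. Of 9 intestinal stem cell markers 2 were higher and 2 lower (1 lower without any 1 of thymus replicates 1 to 3 or intestinal replicates 3 and 4). Lgr5, the stem cell receptor, was among the lower, at 2.0, 2.98, 2.53 and 3.7 CPM in thymus and 60.7, 62.8 and 56.3 CPM in intestine (log2 fold change -4.42 ± 0.31, adjusted p = 2.6e-06).

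Thymic epithelial markers were present in all 4 thymus libraries. Of 19 medullary markers tested, 16 were higher and 2 lower (1 lower without thymus replicate 1 or 4), with a median of 9.98 (8.71 with bounds), and summed to 4128 to 4280 CPM against 1523 to 1706 CPM. Of the 19, 13 passed the count filter only with their thymus counts, as did 7 of the 13 cortical markers below. The shares called higher in both lists are therefore descriptions. Spib, a transcription factor that tuft cells share with medullary cells, was at 1193, 1473, 1279 and 1178 CPM in thymus and 1165, 988 and 965 CPM in intestine, was not called and made up most of the intestinal sum (log2 fold change 0.30 ± 0.14, adjusted p = 0.12). Aire, which switches on tissue-restricted genes in the medulla, was at 264, 266, 277 and 178 CPM in thymus and 0.195, 0.0533 and 0.206 CPM in intestine (log2 fold change 10.63 ± 0.42, adjusted p = 1.2e-07). Fezf2, which has a similar role, was at 333, 326, 326 and 269 CPM in thymus and 0, 0.107 and 0.0258 CPM in intestine (adjusted p = 1.2e-07). The costimulatory molecule Cd80 was at 84.3, 85.2, 78 and 63.1 CPM with no intestinal count, at least 3049-fold higher. Ccl21a, which marks another set of medullary cells, was at 0, 0, 0.0775 and 0 CPM in thymus. Of 13 cortical markers 9 were higher and 1 lower, with sums of 1002 to 1154 CPM against 454 to 483 CPM; Psmb11, the thymoproteasome subunit specific to cortex, was at 3.71, 1.57, 0.744 and 4.62 CPM in thymus and 0.171, 0 and 0 CPM in intestine, a call lost without intestinal replicate 3 or 4. The part of other thymic epithelial cells in these levels was not tested.

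Many of the genes that medullary cells are known to borrow from other tissues passed the count filter only with their thymus counts, so the shares called are descriptions. That held for 8 of 11 keratinising, 7 of 9 muscle, 5 of 8 ciliated cell and 6 of 7 peripheral antigen genes tested, and for 5006 of all 18224. All 11 keratinising epithelium genes tested were higher, with a median of 9.76 (9.05 with bounds) and sums of 1236 to 1654 CPM against 14.8 to 18.5 CPM. Of 8 microfold cell genes 6 were higher; Gp2, the bacterial receptor of these cells, was at 358, 411, 318 and 457 CPM in thymus and 0.0244, 0 and 0.0515 CPM in intestine, a ratio of 14829 higher (95% counting interval 5074 to 71907). Muscle genes were higher for 7 of 9 and lower for 1 (none lower without any 1 of thymus replicates 1 to 3 or intestinal replicates 2 and 3), with sums of 120 to 229 CPM against 50.9 to 99.2 CPM, and all 8 ciliated cell genes were higher, with 257 to 477 CPM against 21.5 to 31.2 CPM. The giant muscle protein Ttn was at 113, 148, 88.2 and 166 CPM in thymus and 0.318, 0.24 and 2.27 CPM in intestine (adjusted p = 5.9e-05). Ttn made up most of the muscle sum in every thymus library and little of it in the intestine. The higher muscle sum in thymus depends on this gene. The ciliary motor Dnah5 was at 88.7, 84.7, 117 and 181 CPM in thymus and 4.37, 0.692 and 3.79 CPM in intestine (log2 fold change 5.32 ± 0.62, adjusted p = 8.2e-05). Of 7 peripheral antigens 6 were higher, with insulin, Ins2, at 1.89, 7.38, 2.88 and 0.748 CPM in thymus and no intestinal count, at least 124-fold higher. Most of these are at low levels: with a filter of 5 CPM in 3 libraries the higher counts were 2 for muscle, 5 for ciliated cells and 3 for peripheral antigens.

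The thymocyte and T cell list summed to 15.5 to 53.7 CPM in thymus and 24 to 35.8 CPM in intestine, which overlap. In this list 3 of 12 were higher and 1 lower, with 1 higher without thymus replicate 1 or intestinal replicate 3 or 4, and none lower without any 1 of thymus replicates 1 and 2 or the intestinal replicates. The 3 higher were Cd4, the T cell coreceptor, at 9.97, 1.98, 9.64 and 3.59 CPM in thymus and 1.44, 0.0799 and 0.0515 CPM in intestine, Themis, a thymocyte signalling protein, at 13, 4.42, 8.74 and 0.214 CPM in thymus and 0.147, 0.346 and 0 CPM in intestine, and Cd5, a T cell surface receptor, at 1.22, 0.682, 0.0155 and 0.47 CPM in thymus with no intestinal count. The calls were lost without thymus replicate 1 or 3 or intestinal replicate 3 or 4 for Cd4, without intestinal replicate 2 for Themis, and without any 1 intestinal library for Cd5; the adjusted p-values rose to 0.116, 0.0727 and 0.068 at most. Ptcra, which defines early thymocytes, had no thymus count, and Cd8b1 was at 0.20, 0.0413, 0.325 and 0.556 CPM in thymus. B cell markers summed to 27.5 to 47.1 CPM against 2.1 to 4.46 CPM, the greater part from Cd79b at 33.6, 15.5, 24.1 and 37.4 CPM in thymus and 3.23, 1.38 and 2.99 CPM in intestine (log2 fold change 3.45 ± 0.49, adjusted p = 3.2e-04; not called with 18 tuft libraries), while Ms4a1, which defines mature B cells, was at 0, 0.062, 0.232 and 0.0427 CPM in thymus. Of the myeloid and dendritic markers, 6 of 9 were higher and none lower (1 lower without thymus replicate 3 or intestinal replicate 4). Lyz2, a lysozyme, was at 188, 185, 197 and 236 CPM in thymus (log2 fold change 4.65 ± 0.58, adjusted p = 1.3e-04). Clec9a, which defines cross-presenting dendritic cells, had no thymus count, and Itgax, another dendritic cell marker, was at 0.0364, 0.0207, 0 and 0 CPM. Stromal and endothelial markers summed to 32.8 to 171 CPM against 3.79 to 4.58 CPM and were higher for 7 of 8 tested; of the 8, 6 passed the filter only with their thymus counts (3 higher with a filter of 5 CPM in 3 libraries). Dcn, a fibroblast proteoglycan, was at 19.1, 9.99, 36.3 and 98.9 CPM in thymus and 0.0489, 0 and 0.927 CPM in intestine (adjusted p = 0.0022). The part of the cells of the blood and stromal lists in any result was not tested.

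Cell cycle genes were lower in thymus. Of 26 tested, 19 were lower and none higher, with a median of -2.31, and 4 were lower when all 18 tuft libraries entered the fit. Mki67, a marker of cycling cells, was at 49.6, 24.9, 23.9 and 25.4 CPM in thymus and 303, 232 and 171 CPM in intestine (log2 fold change -2.93 ± 0.31, adjusted p = 4.2e-05). The mitotic kinase Plk1 was at 2.04, 1.12, 1.36 and 0.769 CPM in thymus and 18.1, 18.7 and 20.2 CPM in intestine (log2 fold change -3.84 ± 0.49, adjusted p = 1.5e-04). Both had non-overlapping libraries. The non-tuft reference was higher than either group, with a summed level of 2731 to 3568 CPM against 699 to 991 CPM in intestinal tuft cells on the same scale.

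Respiratory chain genes were lower as well. All 8 mitochondrial transcripts with enough counts were lower, with a median of -3.57, and so were 23 of 29 nuclear genes, with none higher and a median of -1.29. The other 5 of the 13 mitochondrial transcripts listed, mt-Nd4l, mt-Co2, mt-Co3, mt-Atp6 and mt-Atp8, had no count in any thymus library. Of these, mt-Atp8 had none in the intestine either. The mitochondrial levels are therefore partial, and why these transcripts lack counts was not tested. The cytochrome c oxidase subunit mt-Co1 was at 5151, 4874, 5649 and 8275 CPM in thymus and 116647, 59864 and 57321 CPM in intestine (log2 fold change -3.70 ± 0.28, adjusted p = 4.8e-06). Of the nuclear genes, the ATP synthase subunit Atp5b was at 593, 691, 717 and 776 CPM in thymus and 2846, 1549 and 2053 CPM in intestine (log2 fold change -1.63 ± 0.20, adjusted p = 1.2e-04). The succinate dehydrogenase subunit Sdhb was at 29.6, 45.2, 45.2 and 28.7 CPM in thymus and 233, 174 and 214 CPM in intestine (log2 fold change -2.48 ± 0.23, adjusted p = 1.7e-05), while Sdha, the catalytic subunit beside it, was not called (log2 fold change -0.17 ± 0.17, adjusted p = 0.47). With mitochondrial transcripts left out of the library totals, 4847 genes were higher and 2612 lower.

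Of the 22 genes of the response to tissue dissociation, 8 were higher in thymus and none lower, with a median of 0.79 (5 higher with 18 tuft libraries) and sums of 9034 to 10360 CPM against 7341 to 8911 CPM. Egr3, an early response factor, was at 133, 184, 101 and 135 CPM in thymus and 2.44, 6.98 and 1.42 CPM in intestine (log2 fold change 5.26 ± 0.56, adjusted p = 4.3e-05; 6.16 without intestinal replicate 3). The heat shock co-chaperone Dnajb1 was at 902, 881, 1059.8 and 779 CPM in thymus and 292, 196 and 208 CPM in intestine (log2 fold change 1.96 ± 0.19, adjusted p = 2.5e-05). The immediate early genes Fos and Jun were not called (log2 fold change -0.27 ± 0.14, adjusted p = 0.15 and log2 fold change -0.16 ± 0.14, adjusted p = 0.37). The preparations differed between the tissues, and the part of dissociation in these levels was not tested.

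**Figure D5:**
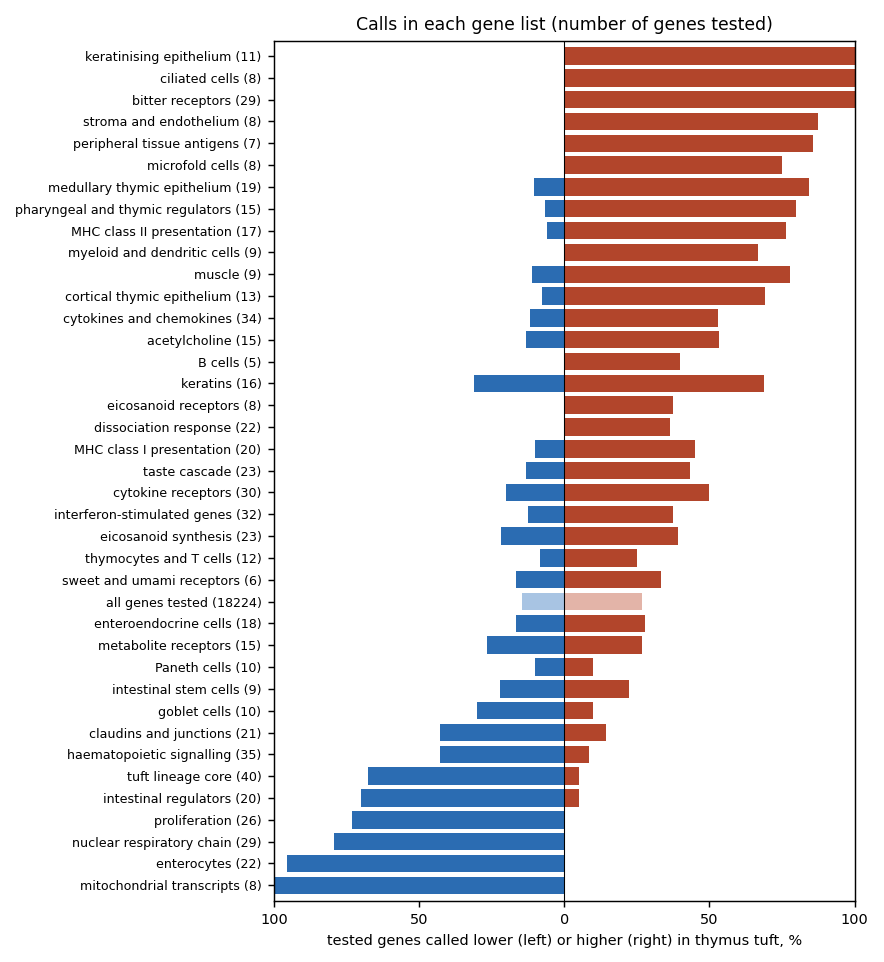
Share of the tested genes of each list that were called higher (right, red) or lower (left, blue) in thymus tuft than in small intestine tuft, in percent, with the number of genes tested in parentheses and all 18224 genes in paler bars as the background. All keratinising (11), ciliated (8) and bitter receptor (29) genes tested were called higher, but 8, 5 and 29 of them passed the count filter only with their thymus counts, so these shares are not read against the background. The same limit applies to other lists with many such genes. Among them are 13 of 19 medullary, 7 of 13 cortical, 12 of 15 pharyngeal and thymic, 8 of 15 acetylcholine and 9 of 16 keratin genes. For enterocyte and respiratory chain genes the bars reach left past the background.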

How the data were processed

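Each of the 21 deposited tables holds whole-number counts per Ensembl gene, made by the authors; the 7 tables of thymus tuft and small intestine tuft were tested, and the other tuft and non-tuft tables served as an alternative and as a reference. Per the labels' protocols, RNA was amplified from oligo(dT) with NuGEN Ovation RNA-Seq V2, without molecular identifiers, and libraries were made with Nextera XT. STAR, DESeq2 and GRCm38 are named in the submitters' processing notes. How reads were assigned to genes, and whether by strand, is not stated in the labels used. Amplified copies are not independent molecules, and with 1350 to 1900 sorted cells per thymus library low counts there vary more.

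Of 43432 identifiers, 42548 matched GENCODE M21, which gave symbols and coordinates; the others held 0.0986% of counts. The 7 libraries were filtered with filterByExpr, scaled with TMM (factors 0.6575 to 1.294) and fitted with edgeR 4.0.16 (quasi-likelihood test, R 4.3.3), with Benjamini-Hochberg adjustment over all 18224 genes tested. On simulated counts in which only a small part of 17691 genes was changed, the same steps called 5.2% of genes changed 2-fold and 39.6% of those changed 4-fold. A gene changed exactly 2-fold also had to reach an estimated 2-fold difference. In the data 41.1% of genes were called, and the adjusted cutoff depends on that share. These rates therefore do not give the power of this comparison. A gene not called may still differ. No pair of libraries agreed within sampling noise. The 2 groups share the replicate numbers 2 to 4, but whether same-numbered libraries share a mouse is not known here. The main fit has no block. Counts under 15 alternatives, among them DESeq2 1.42.0 and limma 3.58.1, are in the closing section.

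The text names the 12 genes with the largest fold change in each direction among called genes whose larger group mean reached 20 CPM and whose libraries did not overlap between groups, and members of 38 gene lists, 16 of them cell type markers. Of 670 list genes, 4 had no identifier under their listed symbol. Genes and lists were chosen with earlier results of these data known, so no list is independent support for a direction. Results for a few list members are not reported here. Promoter sequences are from RefSeq (GRCm38.p6, 32851 promoters).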

Additional observations from a re-analysis of the deposited data

Results flagged for a closer look

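In each of the following genes 1 of the 4 thymus libraries stood apart from the other 3, by a gap above Dixon's 95% critical value relative to the group's range. The high values were Bche at 55.2 CPM in replicate 2, Calhm3 at 58.3 CPM in replicate 2, Ccl21a at 0.0775 CPM in replicate 3, Cnih3 at 0.0207 CPM in replicate 2, Csn2 at 540.1 CPM in replicate 3, Mki67 at 49.6 CPM in replicate 1, Oasl2 at 791 CPM in replicate 4, Skint9 at 88.6 CPM in replicate 4 and Tas1r3 at 187 CPM in replicate 2. The low values were Aire at 178 CPM in replicate 4, Fezf2 at 269 CPM in replicate 4, H2-Ab1 at 1612 CPM in replicate 1, Irf4 at 99.1 CPM in replicate 2, Ltc4s at 16 CPM in replicate 1 and Ptgs1 at 429.7 CPM in replicate 3. Chance gives such a gap in about 1 in 20 groups, and 15 of 184 named genes met it, spread over thymus replicates 1, 2, 3 and 4 with 3, 5, 3 and 4 genes. The groups of 3 intestinal libraries are too small for this criterion. Cnih3 and Ccl21a differ by 1 or a few counts. None of these values changes a direction given above when its library is left out.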

How the results depend on the processing

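No gene called in the 7-library fit was called in the opposite direction under any of the 15 alternatives. DESeq2 called 5994 genes higher and 2887 lower, scaling by relative log expression 5030 and 2429, limma 5260 and 3218, and no filter on low counts 4701 and 2405. A filter of 5 CPM in 3 libraries gave 3214 higher and 2189 lower over 11997 genes tested, fewer genes being tested. With all 18 tuft libraries in the fit, 3462 were higher and 1642 lower; the cause was not tested. Leaving out 1 library at a time gave 3873 to 4688 higher and 2075 to 2706 lower genes. A block for the replicate numbers shared by the groups gave 3906 higher and 2340 lower. Same-numbered libraries deviated from their group means with correlations of -0.0137 to 0.0104 across genes. With few such pairs, each from different tissues, these values cannot decide whether same-numbered libraries share a mouse. Of 155 called genes named in the text, 141 were called in the same direction in every alternative in which they were tested; the 14 that lost the call somewhere were Hoxa3, Psmb11, Cd4, Cd5, Themis and the 9 given with the 18-library fit. With 4 and 3 libraries, differences in genes of few counts are the least certain.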

Other observations

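Several gene families outside the lists were noticed after their values were seen and are given as values only. Skint genes, which encode butyrophilin-like proteins of skin and thymic epithelium, summed to 345 to 600.0 CPM in the 4 thymus libraries and to 0 to 0.0244 CPM in the 3 intestinal libraries. Of 11 annotated members, 10 had enough counts, all 10 of them only through the thymus libraries, and 9 had no intestinal count. All 10 were called higher, beside 26.6% of all genes tested, a description since passing the filter required thymus counts. Skint10 was at 54.6, 52.3, 49 and 78.5 CPM in thymus and 0, 0 and 0 CPM in intestine. Skint9 was at 31.3, 27, 34.9 and 88.6 CPM in thymus and 0.0244, 0 and 0 CPM in intestine. No Skint library overlapped between the tissues in these examples, and the family members are close copies among which reads may be split.

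Kallikreins, serine proteases active in skin and glands, were higher in thymus for 19 of 24 tested members and lower for none, with sums of 259 to 557 CPM against 24.0 to 44.6 CPM; 23 of the 24 passed the filter only with their thymus counts. Klk7, an epidermal protease, was at 58.1, 58.8, 66.4 and 45.1 CPM in thymus and 0, 0 and 0 CPM in intestine. In the other direction, all 8 tested Cyp2c genes, cytochromes P450 of drug and fatty acid metabolism, were lower in thymus, with sums of 10.0 to 15.5 CPM against 385 to 601 CPM. Cyp2c65 was at 1.31, 0.992, 0.79 and 0.0855 CPM in thymus and 123, 84.4 and 88.5 CPM in intestine (log2 fold change -6.94 ± 0.65, adjusted p = 1.9e-05). H2-T3, the ligand of CD8 alpha homodimers known in gut epithelium as the thymus leukaemia antigen, was at 0.873, 0.786, 1.21 and 0.214 CPM in thymus and 73.3, 98 and 132 CPM in intestine, with all intestinal libraries above all thymus libraries (log2 fold change -7.02 ± 0.52, adjusted p = 4.0e-06).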
